A study of Marchantia polymorpha with 9 samples.

Results

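The line MpBHLH12ox#2 of the liverwort Marchantia polymorpha was compared with Tak-1, the male wild-type strain from which it was made. The focus is 29 genes whose change against Tak-1 passed a limit in MpBHLH12ox#2 and stayed under a lower one in its sister line MpBHLH12ox#3. Both lines carry MpBHLH12, which the sample labels call MpGL3, fused to the fluorescent protein Citrine under a constitutive promoter, while Tak-1 carries no transgene. RNA was taken from untreated thalli, the flat plant body, of 3-week-old plants of MpBHLH12ox#2, MpBHLH12ox#3 and Tak-1, with 3 biological replicates numbered in each of the 3 groups. The table analysed gives 1 average FPKM per group (fragments scaled for the length of the gene and the size of the library), so neither the replicate spread nor the library depth is known, and no difference below has a replicate check or a test. MpBHLH12ox#2 is a single line, and what belongs to the fusion protein cannot be told apart from what belongs to transformation or to the line.

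A change is log2(FPKM + 1) in a line minus the same in Tak-1, which understates the change of genes with low FPKM. Of the 19287 genes listed, 13219 had 1 FPKM or more in MpBHLH12ox#2 or Tak-1 and were counted. A change of 1 or more in size was found in 560 of them (4.24%) in MpBHLH12ox#2. The 29 genes (0.219% of those counted and 5.18% of the 560) are those that also stayed under 0.5 in size in MpBHLH12ox#3, and 19 of them were higher and 10 lower in MpBHLH12ox#2. These values chose the genes, so they are given below as a description.

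MpBHLH12 belongs to the IIIf clade of basic helix-loop-helix (bHLH) transcription factors. In Arabidopsis thaliana, proteins of this clade such as GL3 and TT8 join an R2R3-MYB and a WD40 repeat protein in the MBW complex, which acts in anthocyanin synthesis and in the fate of epidermal cells. Anthocyanins and other flavonoids come from the phenylpropanoid pathway, which starts from the phenylalanine that the shikimate pathway supplies.

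The overexpressed gene bore out the label of the line. MpBHLH12 (Mapoly0031s0161) had 547.6 FPKM in MpBHLH12ox#2 and 474.6 FPKM in MpBHLH12ox#3, against 20.3 FPKM in Tak-1. Its level was 27.0 times that of Tak-1 in MpBHLH12ox#2, a log2 change of 4.69, beside 4.48 in MpBHLH12ox#3. Whether the fragments came from the native gene or the transgene cannot be told apart in this table. As for the tissue, 2 genes of photosynthesis were abundant, which does not tell thallus from other green parts. They made up most of the FPKM of their lists, and the other listed genes were far weaker. In MpBHLH12ox#2 the lists summed to 1547 FPKM for 5 chlorophyll a-b binding genes and 2069 FPKM for 6 photosynthesis genes. The light-harvesting gene Mapoly0001s0025 had 1508 FPKM in MpBHLH12ox#2, 1595 FPKM in MpBHLH12ox#3 and 1954 FPKM in Tak-1, and the photosystem II subunit gene Mapoly0006s0055 had 1885, 1734 and 2830 FPKM in the same order. Of 113 genes with the identifier prefix of the male Y chromosome, 38 were counted, and their FPKM summed to 941 in MpBHLH12ox#2, 941 in MpBHLH12ox#3 and 954 in Tak-1. The median change over all counted genes was 0.00 in each line.

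Higher and lower genes were nearly equal in number in MpBHLH12ox#2, with 286 genes higher (2.16%) and 274 lower (2.07%). The higher genes had a median of 15.5 FPKM in MpBHLH12ox#2 and 4.48 FPKM in Tak-1, where 64 did not reach 1 FPKM. The lower genes had a median of 4.29 FPKM in MpBHLH12ox#2 and 14.6 FPKM in Tak-1, and 62 did not reach 1 FPKM in MpBHLH12ox#2. The typical change was thus alike in both directions (medians 1.35 and -1.32), while a change of 3 or more in size was found in 8 higher and 16 lower genes. By level, the share past 1 was largest among the 1022 genes whose higher average was over 100 FPKM (3.23% higher and 3.82% lower) and was smallest among the 961 genes between 1 and 2 FPKM (1.98% higher and 1.46% lower). In that lowest bin the pseudocount of 1 FPKM holds changes down, so its small share is partly set by the measure.

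**Figure D1:**
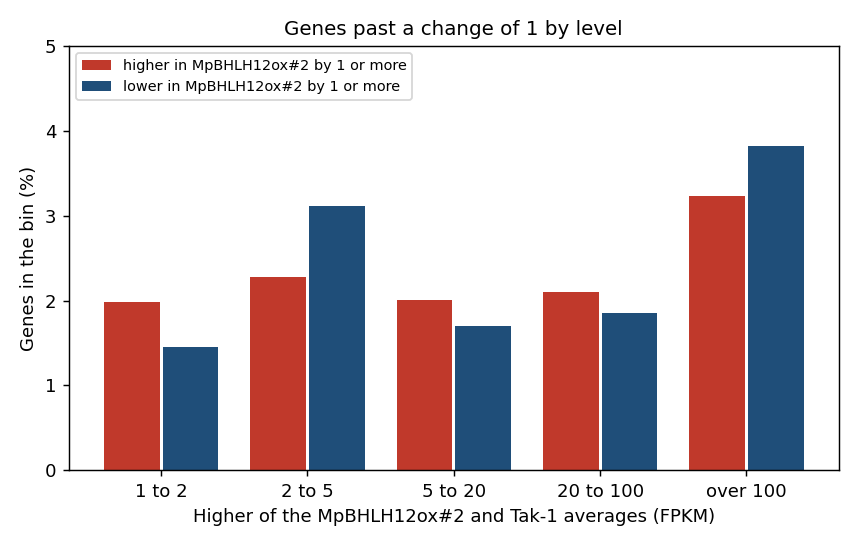
Percentage of counted genes (y axis) that were higher (red) or lower (blue) in MpBHLH12ox#2 than in Tak-1 by a log2 change of 1 or more, in 5 bins of the higher of both averages in FPKM (x axis). The share was largest in the bin over 100 FPKM, at 3.23% higher and 3.82% lower. In the lowest bins the pseudocount of 1 FPKM holds changes down.

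The largest increase was that of Mapoly0035s0093, a gene without an annotation in the tables at hand. It had 364 FPKM in MpBHLH12ox#2 and 151 FPKM in MpBHLH12ox#3, against 0.113 FPKM in Tak-1 (change 8.36 in MpBHLH12ox#2). The gene next to it, Mapoly0035s0092, had 56.8 and 49.4 FPKM in MpBHLH12ox#2 and MpBHLH12ox#3 and 5.65 FPKM in Tak-1. Both of these neighbours thus stood far above Tak-1 in each line, and Mapoly0035s0093 stood higher in MpBHLH12ox#2 than in MpBHLH12ox#3. Mapoly0016s0173 showed the same order, with 478 FPKM in MpBHLH12ox#2, 280 FPKM in MpBHLH12ox#3 and 3.43 FPKM in Tak-1 (change 6.76). Mapoly0015s0172 had 39.8 FPKM in MpBHLH12ox#2, 20.5 FPKM in MpBHLH12ox#3 and 0.316 FPKM in Tak-1 (change 4.95). The increase of Mapoly0041s0039 was alike in the lines, at 75.3 FPKM in MpBHLH12ox#2 and 73.6 FPKM in MpBHLH12ox#3 over 2.94 FPKM in Tak-1. Of the 10 largest increases only Mapoly0002s0225 and MpBHLH12 have a known kind of product here. Mapoly0002s0225 encodes a protein with a D-mannose binding lectin domain and had 25.9 FPKM in MpBHLH12ox#2, 21.6 FPKM in MpBHLH12ox#3 and 2.39 FPKM in Tak-1 (change 2.99). The other 3 of the 10 had changes between 2.90 and 3.38 in MpBHLH12ox#2, and Mapoly1233s0001 was the one among them with the widest gap between lines, at 73.2 FPKM in MpBHLH12ox#2, 29.9 FPKM in MpBHLH12ox#3 and 6.11 FPKM in Tak-1.

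With the pseudocount of 1 FPKM the largest decrease was that of Mapoly0024s0073, which had 24.6 FPKM in MpBHLH12ox#2 and 28.1 FPKM in MpBHLH12ox#3, against 444 FPKM in Tak-1 (change -4.12). Mapoly0137s0004 followed with 1.19 FPKM in MpBHLH12ox#2, 2.23 FPKM in MpBHLH12ox#3 and 33.9 FPKM in Tak-1 (change -3.99). The next gene, Mapoly0047s0001, is annotated as a UDP-glucosyl transferase of the 73C type, an enzyme that adds glucose to small molecules, and had 0.880 FPKM in MpBHLH12ox#2, 1.22 FPKM in MpBHLH12ox#3 and 26.6 FPKM in Tak-1 (change -3.87). With a pseudocount of 0.1 FPKM the order was another, at -4.77 for Mapoly0047s0001, -4.72 for Mapoly0137s0004 and -4.17 for Mapoly0024s0073, and Mapoly0248s0005, a gene of the set, was at -5.96. The 7 others of the 10 largest decreases had changes between -3.83 and -3.31, and none of them carries an annotation at hand. Among genes past 1, the deepest loss in FPKM was that of Mapoly0199s0013. It had 213 FPKM in MpBHLH12ox#2, 256 FPKM in MpBHLH12ox#3 and 884 FPKM in Tak-1.

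The genes that stayed under 0.5 in size in MpBHLH12ox#3 were a small and mostly modest set. The 19 higher genes had a median of 9.66 FPKM in MpBHLH12ox#2, 3.96 FPKM in MpBHLH12ox#3 and 2.77 FPKM in Tak-1, with changes between 1.02 and 2.34 in MpBHLH12ox#2. The 10 lower genes had a median of 1.01 FPKM in MpBHLH12ox#2, 2.88 FPKM in MpBHLH12ox#3 and 3.75 FPKM in Tak-1, with changes between -2.83 and -1.0. The direct difference between the lines was 1 or more in size in 10 of the 19 and in 4 of the 10, so 15 of the 29 entered the set with a smaller gap between the lines. In MpBHLH12ox#3, 3 of the higher genes and 1 of the lower ones had a change of the opposite sign. All other members had a smaller change of the same sign there. In an overlapping count, 5 higher and 3 lower genes were within 0.1 of Tak-1 in MpBHLH12ox#3. The rule taken the other way, a change of 1 or more in MpBHLH12ox#3 and under 0.5 in size in MpBHLH12ox#2, took 44 of the 13269 genes with 1 FPKM or more in MpBHLH12ox#3 or Tak-1 (0.332%), 41 higher and 3 lower in MpBHLH12ox#3.

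**Figure D2:**
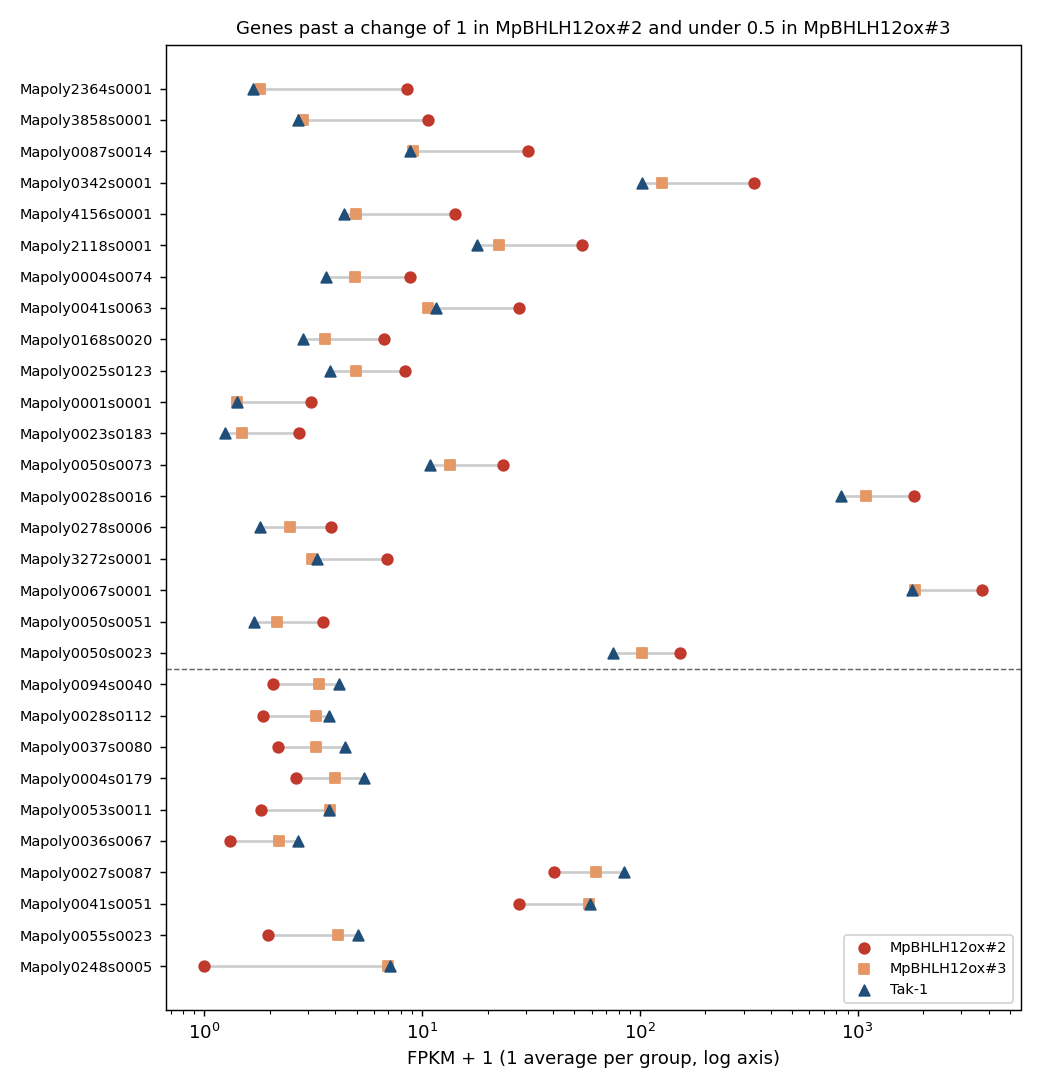
FPKM + 1 (x axis, log scale) of the 29 genes (rows, from the largest increase to the largest decrease) in MpBHLH12ox#2 (red circles), MpBHLH12ox#3 (orange squares) and Tak-1 (blue triangles), each point being 1 group average. Above the dashed line the 19 higher genes run up to 3716 FPKM in MpBHLH12ox#2, while 7 of the 10 lower genes are under 5 FPKM in the higher of the MpBHLH12ox#2 and Tak-1 averages.

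The 4 most abundant genes of the set were all higher in MpBHLH12ox#2. Mapoly0067s0001 had 3716 FPKM in MpBHLH12ox#2, 1835 FPKM in MpBHLH12ox#3 and 1778 FPKM in Tak-1 (change 1.06 in MpBHLH12ox#2 and 0.05 in MpBHLH12ox#3). Its gain of 1938 FPKM in MpBHLH12ox#2 was the largest among all genes past 1. Mapoly0028s0016 had the next largest gain, 983 FPKM, with 1825 FPKM in MpBHLH12ox#2, 1096 FPKM in MpBHLH12ox#3 and 841 FPKM in Tak-1 (1.12 and 0.38 in the lines). In both, MpBHLH12ox#3 was nearer to Tak-1 than to MpBHLH12ox#2, which the rule requires of every member on the log2(FPKM + 1) scale. Mapoly0342s0001 had 334.5 FPKM in MpBHLH12ox#2, 125 FPKM in MpBHLH12ox#3 and 102 FPKM in Tak-1 (1.71 and 0.29). Mapoly0050s0023 had 152 FPKM in MpBHLH12ox#2, 101 FPKM in MpBHLH12ox#3 and 74.4 FPKM in Tak-1 (1.02 and 0.44), so it passed the rule by little on both sides. None of these 4 genes has an annotation at hand. At these levels the pseudocount matters little, and the ratio of MpBHLH12ox#2 to Tak-1 was 2.09 for Mapoly0067s0001, 2.17 for Mapoly0028s0016, 3.29 for Mapoly0342s0001 and 2.04 for Mapoly0050s0023.

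The 2 largest increases of the set, and 5 of its higher genes in all, were the only gene of their scaffold, a stretch of assembled genome. Mapoly2364s0001 had 7.53 FPKM in MpBHLH12ox#2, 0.804 FPKM in MpBHLH12ox#3 and 0.680 FPKM in Tak-1 (2.34 and 0.10), and its change in MpBHLH12ox#2 was 1.14 with a pseudocount of 5 FPKM. Mapoly3858s0001 had 9.66 FPKM in MpBHLH12ox#2, 1.85 FPKM in MpBHLH12ox#3 and 1.69 FPKM in Tak-1 (1.99 and 0.08). Mapoly4156s0001 had 13.1 FPKM in MpBHLH12ox#2, 3.96 FPKM in MpBHLH12ox#3 and 3.39 FPKM in Tak-1 (1.68 and 0.18). In these 3 genes MpBHLH12ox#3 and Tak-1 were close together and MpBHLH12ox#2 stood apart. Mapoly2118s0001 had more, with 53.1 FPKM in MpBHLH12ox#2, 21.6 FPKM in MpBHLH12ox#3 and 16.9 FPKM in Tak-1 (1.59 and 0.33). Mapoly3272s0001 had 5.93 FPKM in MpBHLH12ox#2 and was slightly lower in MpBHLH12ox#3 (2.11 FPKM) than in Tak-1 (2.30 FPKM). Whether fragments of these genes were shared with near-identical copies was not tested.

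Of the other 10 higher genes, 2 are annotated. Mapoly0004s0074 encodes a protein with a chlorophyll a-b binding domain, the domain of light-harvesting antenna proteins, and had 7.78 FPKM in MpBHLH12ox#2, 3.92 FPKM in MpBHLH12ox#3 and 2.64 FPKM in Tak-1 (1.27 and 0.44). Mapoly0001s0001 encodes a protein with a type II intron maturase domain, found in proteins that help introns of organelle transcripts to splice. It had 2.10 FPKM in MpBHLH12ox#2, 0.406 FPKM in MpBHLH12ox#3 and 0.413 FPKM in Tak-1, so its change of 1.13 rested on about 2 FPKM. Mapoly0087s0014 showed the clearest split of the unannotated ones, with 29.6 FPKM in MpBHLH12ox#2, 8.04 FPKM in MpBHLH12ox#3 and 7.79 FPKM in Tak-1 (1.80 and 0.04). Mapoly0041s0063 had 26.8 FPKM in MpBHLH12ox#2, 9.66 FPKM in MpBHLH12ox#3 and 10.6 FPKM in Tak-1, again with the lines on opposite sides of Tak-1 (1.26 and -0.12). The remaining 6 had smaller or intermediate differences. Mapoly0050s0073 had 22.5 FPKM in MpBHLH12ox#2, 12.4 FPKM in MpBHLH12ox#3 and 9.82 FPKM in Tak-1, and Mapoly0025s0123 had 7.31, 3.97 and 2.77 FPKM in that order. Mapoly0168s0020 had 5.71 FPKM in MpBHLH12ox#2, 2.58 FPKM in MpBHLH12ox#3 and 1.85 FPKM in Tak-1. The lowest were Mapoly0278s0006, Mapoly0050s0051 and Mapoly0023s0183, which were under 1 FPKM in Tak-1 and between 1.71 and 2.80 FPKM in MpBHLH12ox#2. In that order they had 1.46, 1.15 and 0.492 FPKM in MpBHLH12ox#3, against 0.794, 0.697 and 0.244 FPKM in Tak-1. Their changes in MpBHLH12ox#3 (0.46, 0.34 and 0.26) are understated by the pseudocount, so they were not level with Tak-1 there.

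Most of the 10 lower genes were weakly expressed. The exceptions were Mapoly0027s0087, with 39.4 FPKM in MpBHLH12ox#2, 61.8 FPKM in MpBHLH12ox#3 and 83.3 FPKM in Tak-1 (-1.06 and -0.43), and Mapoly0041s0051, with 26.9 FPKM in MpBHLH12ox#2, 57.5 FPKM in MpBHLH12ox#3 and 58.0 FPKM in Tak-1 (-1.08 and -0.01). In Mapoly0041s0051 the level of MpBHLH12ox#3 was within 1 FPKM of Tak-1, while that of Mapoly0027s0087 was between those of MpBHLH12ox#2 and Tak-1. Mapoly0248s0005 was listed at 0 FPKM in MpBHLH12ox#2, against 5.95 FPKM in MpBHLH12ox#3 and 6.11 FPKM in Tak-1, and its change of -2.83 was set by the pseudocount (-5.96 with 0.1 FPKM and -1.15 with 5 FPKM). It was the only member listed at 0 in any group, and the gene before it on the scaffold, Mapoly0248s0004, was not lower, with 9.21 FPKM in MpBHLH12ox#2, 8.78 FPKM in MpBHLH12ox#3 and 4.25 FPKM in Tak-1. Mapoly0055s0023 had 0.957 FPKM in MpBHLH12ox#2, 3.1 FPKM in MpBHLH12ox#3 and 4.09 FPKM in Tak-1 (-1.38 and -0.31). The 1 annotated lower gene, Mapoly0004s0179, encodes a protein with the DUF1399 domain of unknown function, and had 1.65 FPKM in MpBHLH12ox#2, 2.97 FPKM in MpBHLH12ox#3 and 4.44 FPKM in Tak-1 (-1.04 and -0.45). The other 5 had between 0.309 and 1.18 FPKM in MpBHLH12ox#2 and between 1.70 and 3.41 FPKM in Tak-1. Among them Mapoly0053s0011 was level in MpBHLH12ox#3, with 0.811 FPKM in MpBHLH12ox#2, 2.79 FPKM in MpBHLH12ox#3 and 2.72 FPKM in Tak-1.

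**Figure D3:**
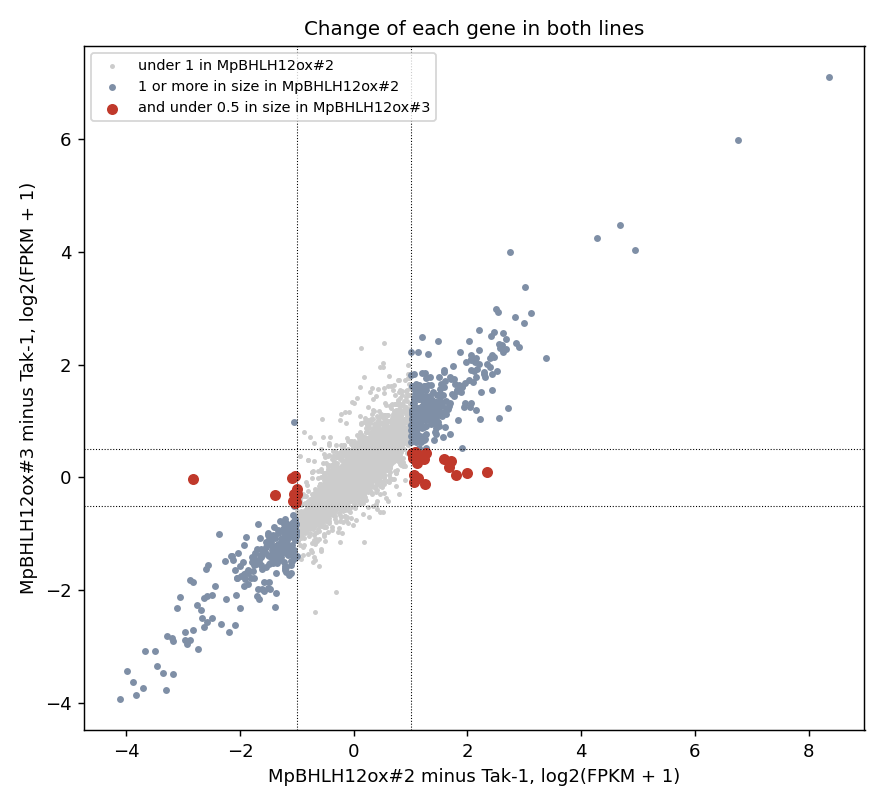
Change against Tak-1 on the log2(FPKM + 1) scale in MpBHLH12ox#2 (x axis) and MpBHLH12ox#3 (y axis) of the 13219 counted genes, with dotted lines at a size of 1 and of 0.5. The 29 genes of the set (red) lie outside 1 on the x axis and inside 0.5 on the y axis, the farthest being Mapoly0248s0005 at -2.83 and Mapoly2364s0001 at 2.34. Both axes share the Tak-1 average, so their likeness is not a result.

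The limits of the rule cut through a continuous range. Just inside the size of 1 were Mapoly0094s0040 and Mapoly0028s0112, each with a change of -1.0 in MpBHLH12ox#2, and Mapoly0037s0080 at -1.02. Just outside were Mapoly0100s0004 (-0.99), Mapoly0186s0014 (0.98) and Mapoly0009s0081 (-0.95). Mapoly0009s0081 had opposite signs in the lines, with 2.16 FPKM in MpBHLH12ox#2, 7.0 FPKM in MpBHLH12ox#3 and 5.13 FPKM in Tak-1. On the side of MpBHLH12ox#3, Mapoly0278s0006 (0.46), Mapoly0004s0179 (-0.45) and Mapoly0037s0080 (-0.44) were just inside 0.5. Mapoly0039s0013 (-0.51), Mapoly0112s0056 (0.52) and Mapoly0008s0011 (0.52) were just outside. Mapoly0112s0056 was missed by little although its levels were far apart, at 11.5 FPKM in MpBHLH12ox#2, 3.80 FPKM in MpBHLH12ox#3 and 2.34 FPKM in Tak-1.

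By position, genes on very short scaffolds took a larger share of the set than of all genes. Scaffolds with 5 or fewer genes held 7 of the 29 genes (24.1%), against 44 of the 560 genes past 1 (7.86%) and 359 of the 13219 genes counted (2.72%). Genes numbered 1 on their scaffold were 8 of the 29 (27.6%), against 3.13% of those counted. This overlaps with the share before, since a gene alone on its scaffold is always number 1, as were 5 of the 8. The 29 genes lay on 24 scaffolds, at most 3 on one, and no member was the neighbour of another. Among their 28 counted immediate neighbours 6 had a change of 1 or more in MpBHLH12ox#2, beside 4.24% of all counted genes, and the median change of the neighbours was 0.05.

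Of these 6 neighbours, 4 differed from Tak-1 in the direction of the member, and all 4 did so in MpBHLH12ox#3 as well. All 3 genes of the scaffold of Mapoly0342s0001 were higher. Mapoly0342s0002 had 229 FPKM in MpBHLH12ox#2, 81.8 FPKM in MpBHLH12ox#3 and 34.2 FPKM in Tak-1 (2.70 and 1.23), and the gene after it, Mapoly0342s0003, had 26, 8.57 and 3.60 FPKM in the same order (2.55 and 1.06). In each of these 3 genes MpBHLH12ox#2 stood far above MpBHLH12ox#3. Mapoly0087s0015, next to Mapoly0087s0014, had 172 FPKM in MpBHLH12ox#2, 115 FPKM in MpBHLH12ox#3 and 60.6 FPKM in Tak-1 (1.49 and 0.91). Mapoly0050s0072, next to Mapoly0050s0073, had 131 FPKM in MpBHLH12ox#2, 110 FPKM in MpBHLH12ox#3 and 57.3 FPKM in Tak-1 (1.18 and 0.93). Mapoly0050s0022, next to Mapoly0050s0023, had changes of 1.89 and 1.51. The other 2 neighbours went the opposite way. The gene after Mapoly0028s0016, Mapoly0028s0017, had a change of -2.59 in MpBHLH12ox#2 and -2.56 in MpBHLH12ox#3. The gene after Mapoly0168s0020, Mapoly0168s0021, had changes of -2.04 and -1.34 in that order, so these 2 were also lower in both lines.

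Neighbouring changed genes were not particular to the set, since some of all 560 genes were next to each other. Genes with consecutive numbers on a scaffold and a change of 1 or more in the same direction formed 45 runs, 24 higher and 21 lower. These runs held 110 genes (19.6%), where 2.16% of all counted genes were higher and 2.07% lower. Whether this is more than the same number of genes placed at random would give was not tested. The longest run was of 9 lower genes, Mapoly0027s0164 to Mapoly0027s0172. They had between 0.0419 and 1.38 FPKM in MpBHLH12ox#2 and between 0.490 and 3.03 FPKM in MpBHLH12ox#3, against 1.56 to 13.5 FPKM in Tak-1. All 9 were lower in MpBHLH12ox#2 than in MpBHLH12ox#3, so the order of the groups was the same along the run, although none entered the set of 29. The gene with the highest level among them, Mapoly0027s0170, had 1.04 FPKM in MpBHLH12ox#2, 3.03 FPKM in MpBHLH12ox#3 and 13.5 FPKM in Tak-1. Whether these neighbours share fragments was not tested.

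**Figure D4:**
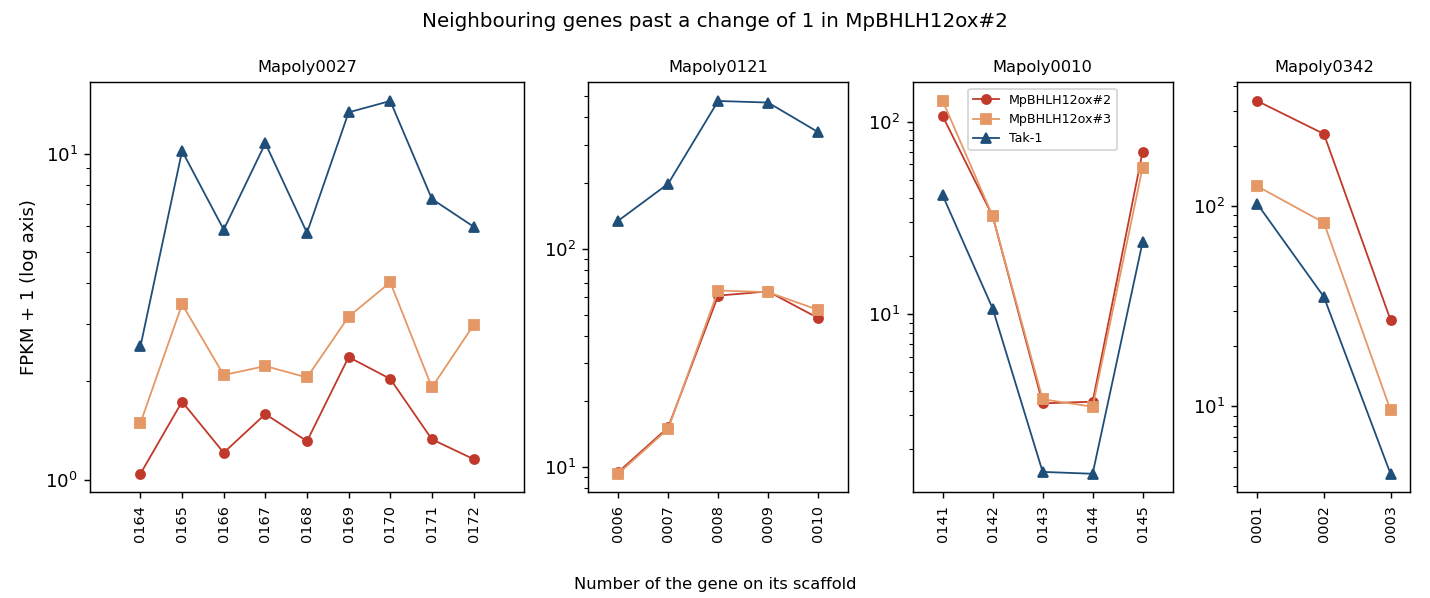
FPKM + 1 (y axis, log scale, its range differing between panels) of neighbouring genes (x axis, number of the gene on its scaffold) in MpBHLH12ox#2 (red), MpBHLH12ox#3 (orange) and Tak-1 (blue), 1 average per group. On scaffolds Mapoly0027 and Mapoly0121 all genes shown are lower in MpBHLH12ox#2 than in Tak-1, on Mapoly0010 and Mapoly0342 all are higher, and the lines are apart on Mapoly0027 and Mapoly0342.

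A run of 5 lower genes, Mapoly0121s0006 to Mapoly0121s0010, lay among the most abundant transcripts to be lower. Mapoly0121s0008 had 60.1 FPKM in MpBHLH12ox#2, 63.5 FPKM in MpBHLH12ox#3 and 475 FPKM in Tak-1, and Mapoly0121s0009 had 62.8, 62.3 and 467 FPKM in that order. The changes of the 5 in MpBHLH12ox#2 ran from -3.83 to -2.83, and here the lines were close together. A run of 5 higher genes, Mapoly0010s0141 to Mapoly0010s0145, had changes of 1.18 to 1.59 in MpBHLH12ox#2 at very unequal levels. Mapoly0010s0141 had 106 FPKM in MpBHLH12ox#2, 127 FPKM in MpBHLH12ox#3 and 40.4 FPKM in Tak-1, while Mapoly0010s0144 had 2.53, 2.32 and 0.491 FPKM in the same order. Among the annotated runs were Mapoly0002s0345 and Mapoly0002s0346, which both encode proteins with the domain of Nod 19, named for a stress-induced protein. Mapoly0002s0345 had 11.2 FPKM in MpBHLH12ox#2, 8.58 FPKM in MpBHLH12ox#3 and 1.19 FPKM in Tak-1, and Mapoly0002s0346 had 106 FPKM in MpBHLH12ox#2, 80.1 FPKM in MpBHLH12ox#3 and 33.4 FPKM in Tak-1.

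The phenylpropanoid pathway held more higher than lower genes in MpBHLH12ox#2. Of 82 listed genes of the shikimate and phenylpropanoid pathways 74 were counted, and 10 of them were higher and 1 lower by 1 or more, beside 2.16% and 2.07% over all counted genes. At a size of 0.5, 27 were higher and 5 lower, beside 8.08% and 7.41% of all counted genes (15.5% together). Their median change was 0.27 in MpBHLH12ox#2 and 0.30 in MpBHLH12ox#3, while the median over all counted genes was 0.00. None of the 82 was among the 29 genes of the set.

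The first enzyme of the pathway, phenylalanine ammonia lyase, turns phenylalanine into cinnamic acid. Of its 10 genes, Mapoly0132s0049 was the one past 1 and the most abundant in both lines but not in Tak-1, with 155 FPKM in MpBHLH12ox#2, 161 FPKM in MpBHLH12ox#3 and 53.6 FPKM in Tak-1 (1.51 and 1.57). Over all 10, FPKM summed to 359 in MpBHLH12ox#2, 372 in MpBHLH12ox#3 and 227 in Tak-1. One gene stood on opposite sides of Tak-1 in the lines, Mapoly0044s0114, with 1.90 FPKM in MpBHLH12ox#2, 5.12 FPKM in MpBHLH12ox#3 and 3.31 FPKM in Tak-1 (-0.58 and 0.50). The gene next to it, Mapoly0044s0115, a polyketide or chalcone synthase gene, was higher in both, with 4.58 FPKM in MpBHLH12ox#2, 5.21 FPKM in MpBHLH12ox#3 and 2.46 FPKM in Tak-1. Cinnamate 4-hydroxylase, the next enzyme, had 3 genes, of which the abundant Mapoly0163s0018 had 335 FPKM in MpBHLH12ox#2, 342 FPKM in MpBHLH12ox#3 and 198 FPKM in Tak-1 (0.76 and 0.79). The 3 genes of 4-coumaroyl-CoA ligase, which makes the CoA ester that chalcone synthase uses, had changes between -0.08 and 0.46.

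Chalcone synthase, the entry enzyme of flavonoid synthesis, and its polyketide synthase relatives formed the largest group, with 19 of 24 listed genes counted. In this group 5 genes were higher by 1 or more in MpBHLH12ox#2, beside 2.16% of all counted genes, and none was lower by 0.5 or more, beside 7.41%. All 5 lay on scaffold Mapoly0070. The most abundant, Mapoly0070s0062, had 557 FPKM in MpBHLH12ox#2, 462 FPKM in MpBHLH12ox#3 and 180 FPKM in Tak-1 (1.62 and 1.35). Mapoly0070s0063 had 244 FPKM in MpBHLH12ox#2, 207 FPKM in MpBHLH12ox#3 and 88.8 FPKM in Tak-1, and Mapoly0070s0036 had 216, 254 and 63.9 FPKM in that order. The order of the lines thus differed between synthase genes of 1 scaffold. Over the group the summed FPKM was 1558 in MpBHLH12ox#2, 1540 in MpBHLH12ox#3 and 791 in Tak-1, and the median change was 0.39 in MpBHLH12ox#2, beside 0.72 in MpBHLH12ox#3. No synthase gene outside scaffold Mapoly0070 passed 1 in MpBHLH12ox#2. Mapoly0009s0178 had a change of 0.05 in MpBHLH12ox#2 and 0.61 in MpBHLH12ox#3, and Mapoly0041s0118 had 0.09 and 0.72. Mapoly0072s0061 was higher in both lines, at 60.3 FPKM in MpBHLH12ox#2, 75.6 FPKM in MpBHLH12ox#3 and 33.7 FPKM in Tak-1. These synthase genes form a family of close relatives, and how fragments were shared among them was not tested.

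**Figure D5:**
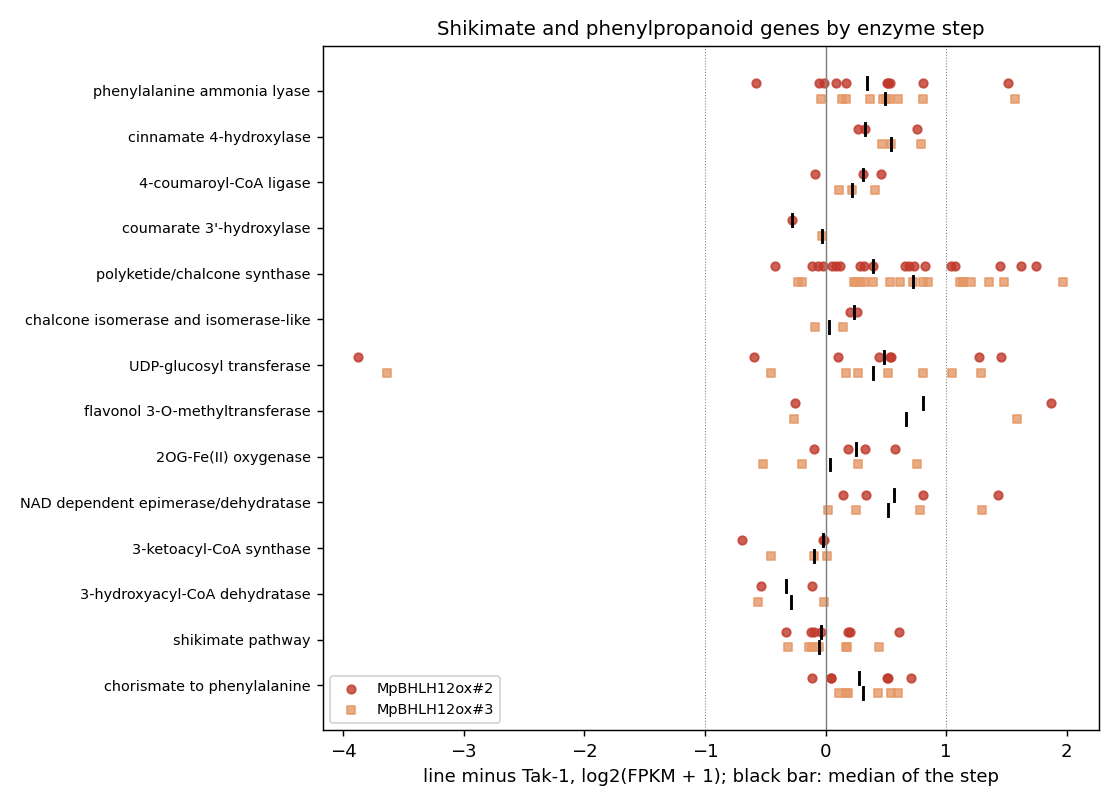
Change against Tak-1 on the log2(FPKM + 1) scale (x axis) of the 74 counted pathway genes in MpBHLH12ox#2 (red circles) and MpBHLH12ox#3 (orange squares), by enzyme step (rows), with a black bar at the median of each step and dotted lines at a size of 1. The synthase row holds 5 genes past 1 in MpBHLH12ox#2, and the farthest point is the glucosyl transferase gene Mapoly0047s0001 at -3.87.

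Later and earlier steps were uneven. Chalcone isomerase and its relatives had 2 genes, at 0.21 and 0.26 in MpBHLH12ox#2. A flavonol 3-O-methyltransferase gene, Mapoly0129s0005, had the largest increase of the pathway, with 79.2 FPKM in MpBHLH12ox#2, 65.1 FPKM in MpBHLH12ox#3 and 21.0 FPKM in Tak-1 (1.87 and 1.59). Among 8 UDP-glucosyl transferase genes, Mapoly0099s0001 had 30.9 FPKM in MpBHLH12ox#2, 23.1 FPKM in MpBHLH12ox#3 and 10.6 FPKM in Tak-1, and Mapoly0067s0104 had 6.64, 6.75 and 2.17 FPKM in the same order. This enzyme group therefore held both higher genes and the deep decrease of Mapoly0047s0001. Mapoly0063s0049, of the NAD dependent epimerase family that reductases of flavonoid synthesis belong to, had 28.3 FPKM in MpBHLH12ox#2, 25.8 FPKM in MpBHLH12ox#3 and 9.89 FPKM in Tak-1. Upstream, the 7 genes of the shikimate pathway had a median change of -0.04 and none past 1, with Mapoly0008s0188 the highest at 417 FPKM in MpBHLH12ox#2, 372 FPKM in MpBHLH12ox#3 and 274 FPKM in Tak-1. Of the 6 genes that lead from chorismate to phenylalanine, 3 were higher by 0.5 or more (8.08% of all counted genes), up to 0.71 for Mapoly0204s0012. Outside the pathway list, Mapoly0003s0277, annotated as a shikimate O-hydroxycinnamoyltransferase that draws on the same CoA esters, was lower, with 44.4 FPKM in MpBHLH12ox#2, 58.8 FPKM in MpBHLH12ox#3 and 124 FPKM in Tak-1 (-1.46 and -1.06).

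Of 12 bHLH genes in the study's tree 9 were counted, and besides MpBHLH12 itself 1 was higher and 1 lower by 1 or more in MpBHLH12ox#2, beside 2.16% higher and 2.07% lower over all counted genes. Mapoly0013s0167 had 6.55 FPKM in MpBHLH12ox#2, 4.61 FPKM in MpBHLH12ox#3 and 1.42 FPKM in Tak-1 (1.64 and 1.21). Mapoly0028s0058 had 0.782 FPKM in MpBHLH12ox#2, 0.752 FPKM in MpBHLH12ox#3 and 4.44 FPKM in Tak-1 (-1.61 and -1.63). Close to it, Mapoly0028s0060 and Mapoly0028s0062 took opposite directions, at 0.70 and -0.70 in MpBHLH12ox#2. The others differed by less than 0.5, among them the Y-linked MapolyY_B0018, with 27.4 FPKM in MpBHLH12ox#2, 27.7 FPKM in MpBHLH12ox#3 and 28.6 FPKM in Tak-1.

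Besides MpBHLH12, the study lists qRT-PCR primers for 6 Marchantia genes, among them EF1a, its standard for normalization. The others may have been chosen on the same samples, so they are not independent evidence. Mapoly0024s0116, the elongation factor EF1a, had 4057 FPKM in MpBHLH12ox#2, 3956 FPKM in MpBHLH12ox#3 and 3564.5 FPKM in Tak-1 (change 0.19). Mapoly0041s0025 was higher, with 1.98 FPKM in MpBHLH12ox#2, 1.39 FPKM in MpBHLH12ox#3 and 0.129 FPKM in Tak-1. Lower were Mapoly0028s0058, given above, Mapoly0046s0038 (-1.14) and Mapoly0001s0298 (-1.07). Mapoly0001s0298 encodes a TCP transcription factor, a plant family known for roles in growth and cell division, and had 4.81 FPKM in MpBHLH12ox#2, 5.07 FPKM in MpBHLH12ox#3 and 11.2 FPKM in Tak-1. The last, Mapoly0166s0010, had 0.241 FPKM in MpBHLH12ox#2, 0.297 FPKM in MpBHLH12ox#3 and 1.33 FPKM in Tak-1 (-0.91).

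Annotations were held for the first 1933 listed genes only. The counts of their families stand beside 2.16% higher and 2.07% lower by 1 or more, and 8.08% higher and 7.41% lower by 0.5 or more, over all counted genes. Chlorophyll a-b binding proteins were divided by level. The weakly expressed Mapoly0004s0164 had 9.78 FPKM in MpBHLH12ox#2, 7.66 FPKM in MpBHLH12ox#3 and 2.18 FPKM in Tak-1 (1.76 and 1.44), and Mapoly0004s0163 had 2.59, 1.92 and 1.10 FPKM in the same order (0.78 and 0.48). With Mapoly0004s0074 of the set, 3 of the 5 such genes were higher by 0.5 or more, while the abundant Mapoly0001s0025 had a change of -0.37. Cytochrome P450 enzymes, oxidases of much of secondary metabolism, had 6 of 9 counted genes higher and 1 lower by 0.5 or more (Mapoly0005s0139, -0.52) and a median change of 0.73 in MpBHLH12ox#2, beside 0.39 in MpBHLH12ox#3. The P450 gene past 1, Mapoly0004s0182, had 6.88 FPKM in MpBHLH12ox#2, 5.86 FPKM in MpBHLH12ox#3 and 0.705 FPKM in Tak-1. Genes annotated to the family of receptor-like kinases, which carry signals across the cell membrane, had 6 of 27 counted genes lower and 1 higher by 0.5 or more and a median of -0.20. The overlapping list of protein kinases had 3 of 40 counted genes lower and 1 higher by 0.5 or more and a median of -0.09. Of the receptor-like list, Mapoly0001s0152 passed 1, with 3.81 FPKM in MpBHLH12ox#2, 4.6 FPKM in MpBHLH12ox#3 and 8.85 FPKM in Tak-1. Its annotation lists leucine-rich repeats but no kinase domain. Of the 6 auxin-responsive SAUR genes, small genes that auxin induces in many plants, 2 were lower by 1 or more. Mapoly0002s0081 had 1.47 FPKM in MpBHLH12ox#2, 1.41 FPKM in MpBHLH12ox#3 and 6.21 FPKM in Tak-1.

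Single annotated genes past 1 added other functions. Mapoly0004s0307, related to cystathionine beta-synthase of sulfur amino acid metabolism, had 74.7 FPKM in MpBHLH12ox#2, 63.8 FPKM in MpBHLH12ox#3 and 10.8 FPKM in Tak-1 (2.68 and 2.46). The sugar efflux transporter gene Mapoly0003s0269 had 7.29 FPKM in MpBHLH12ox#2, 5.00 FPKM in MpBHLH12ox#3 and 0.147 FPKM in Tak-1. Mapoly0002s0223, of the RCI2 family of small membrane proteins named for their response to cold and salt, showed a graded order, with 105 FPKM in MpBHLH12ox#2, 70.2 FPKM in MpBHLH12ox#3 and 43.7 FPKM in Tak-1 (1.25 and 0.67). Lower genes included the sulfate transporter Mapoly0001s0357, with 29.5 FPKM in MpBHLH12ox#2, 34.6 FPKM in MpBHLH12ox#3 and 65.7 FPKM in Tak-1 (-1.13 and -0.90). The lipoxygenase gene Mapoly0001s0529, whose enzyme family oxidises fatty acids, had 2.01 FPKM in MpBHLH12ox#2, 2.33 FPKM in MpBHLH12ox#3 and 5.25 FPKM in Tak-1. Mapoly0006s0081, with a plastocyanin-like copper domain, had 22.0 FPKM in MpBHLH12ox#2, 23.0 FPKM in MpBHLH12ox#3 and 48.4 FPKM in Tak-1 (-1.10 and -1.04).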

How the data were processed

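Thalli of 3-week-old plants were sequenced for MpBHLH12ox#2, MpBHLH12ox#3 and Tak-1. Bowtie2, HTSeq and Cuffdiff 2.2.1 are named in the submitters' processing notes, and the authors mapped reads to the JGI genome. For 19287 genes the authors deposited the mean FPKM of each group. How FPKM was computed, with which annotation and filters, and the library depths were not given in the sources used here. Group averages carry no replicate error, so the model test planned for replicate values was not run and counts follow a rule of size.

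The difference of log2(FPKM + 1) between each line and Tak-1 was taken for genes with 1 FPKM or more in MpBHLH12ox#2 or Tak-1, and genes were counted from a size of 1 (second size 0.5). The members and gene lists were chosen with earlier results of these data known. Named genes were MpBHLH12, the bHLH genes of the study's tree, the genes with qRT-PCR primers, members of the set (up to 15 in each direction with 2 FPKM or more, and all annotated ones), the 10 largest changes and FPKM differences in each direction, the genes at the limits, and listed genes past 1, or past 0.5 where fewer than 3 passed. Outside this rule, named after their values were seen, were runs and neighbours of genes, weak members of the set, Mapoly0001s0025, some pathway genes under 1, and the annotated genes past 1 of no list. Annotations came from the part of the study's gene table at hand, the first 1933 genes, and its pathway table of 82 genes. None of the identifiers matched the RefSeq gene table of assembly MpTak2_v7.1 (0 matches), so no sequence is shown. Alternatives were pseudocounts of 0.1 and 5 FPKM, rescaling to a median change of 0, no filter or a filter of 5 FPKM, sizes of 0.5 and 2, and limits of 0.25 and 0.75 for MpBHLH12ox#3. Scripts were tested on simulated data. Python 3.11.15, numpy 2.4.6, pandas 2.3.3 and matplotlib 3.10.9 were used.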

Additional observations from a re-analysis of the deposited data

How the results depend on the processing

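No paired analysis was possible because each group is given as 1 mean without replicate numbers, and leaving out replicates was not run for the same reason. With 1 average a group, neither the error of a change nor the depth behind a low FPKM is known. The set of 29 genes depended on the settings. It held 12 genes (10 higher, 2 lower) with a pseudocount of 5 FPKM, 10 of which were among the 29, and 40 with a pseudocount of 0.1 FPKM, 22 of which were among the 29. A filter of 5 FPKM left 18 genes (15 higher, 3 lower). A limit of 0.25 in MpBHLH12ox#3 left 12 and a limit of 0.75 gave 53. Asking instead for a difference of 1 or more between the lines gave 27 genes, of which 14 were among the 29. The 560 genes past 1 became 853 (441 higher, 412 lower) with a pseudocount of 0.1 FPKM and 251 (126 higher, 125 lower) with one of 5 FPKM, and the change of MpBHLH12 was 4.45 with one of 5 FPKM. At a size of 0.5 there were 2048 genes past it, 547 in the set and 32 of the pathway, and at a size of 2 there were 111, 2 and 1. The limit in MpBHLH12ox#3 stayed at 0.5, so the 547 genes need not differ between the lines by any set amount. The check by gene covered 61 genes, which were the set and the 10 largest changes and FPKM differences in each direction, without MpBHLH12. The other named genes were not in it. Of the 61, 35 moved by 0.1 or more with a pseudocount of 0.1 FPKM (8 by over 1.5 times) and 43 with one of 5 FPKM (22 by over 1.5 times). On rescaling 0 moved, since all changes shifted by the same small amount. Mapoly0248s0005 (-2.83) was at -5.96 and -1.15 with pseudocounts of 0.1 and 5 FPKM, and Mapoly2364s0001 (2.34) at 3.29 and 1.14. None of the 61 changed sign, but a pseudocount cannot change a sign and the shift on rescaling was small, so this is no check of direction.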

Other observations

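Other groups of annotated genes are given here as values, beside 4.24% of all counted genes past 1 and 15.5% past 0.5 in MpBHLH12ox#2. At these shares groups of a few genes would hold few or none, so no lack of change is read from them. Of 26 counted genes of ribosomal proteins, none differed from Tak-1 by 0.5 or more, and their median change was 0.10. The same held for 5 histone genes (median 0.03), for 9 genes with pentatricopeptide repeats, which act on organelle RNA (median -0.08), and for 18 genes from a list of transcription factor domains that left out the TCP family (median -0.08). Among 20 genes of heat shock proteins and DnaJ cochaperones 1 was lower by 0.5 or more, and among 4 glutathione S-transferase genes none was past 0.5 in either direction. Of 5 counted photosynthesis genes 1 was lower by 0.5 or more, Mapoly0006s0055 (change -0.59). These groups cover the first 1933 listed genes only.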
